A study of Mus musculus with 4 samples.

Results

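The chemokine genes Cxcl1, Cxcl2, Cxcl5, Cxcl12, Cxcl14, Cxcl16, Ccl2, Ccl7, Ccl20 and Cx3cl1, which epithelia can express, were followed in mouse mammary basal cell colonies grown with Wnt3A or its vehicle. They were chosen by name as 10 genes, and every probe set annotated with a member as its only symbol was taken, which gave 19 of the 45037 probe sets on the array. Of the 10 genes, 5 had 1 probe set, 2 had 2, 2 had 3 and Cx3cl1 had 4. Probe sets of a gene read the same RNA, so they are not replicates of each other.

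Both groups were cells from the mammary glands of virgin CD1 females 8 to 12 weeks old, sorted as lineage-negative, CD24-positive and CD29-high, which takes the basal cells and with them the mammary stem cells. They were embedded in Matrigel, a basement membrane gel, in medium with 50 ng/ml EGF. The Wnt3A group received 200 ng/ml purified Wnt3A, the secreted ligand of the canonical Wnt pathway, and the Control group its vehicle, CHAPS in PBS. RNA was taken from passage 2 colonies after 6 to 7 days and hybridised to 2 arrays a group, named Wnt3A 1, Wnt3A 2, Control 1 and Control 2. Whether 2 arrays with the same treatment came from separate cultures or animals is not stated in the labels, so every SE and p below measures only the spread between these arrays, which may be technical. Colonies were read in bulk, where fewer cells of a type and less RNA per cell cannot be told apart.

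Chemokines are small secreted proteins that steer cells along concentration gradients through G protein-coupled receptors, and they are classed by the spacing of their first cysteines into CC, CXC and CX3C families. Cxcl1, Cxcl2 and Cxcl5 recruit neutrophils through Cxcr2, and Ccl2 and Ccl7 recruit monocytes through Ccr2. Ccl20 draws Ccr6-bearing lymphocytes and dendritic cells to epithelial surfaces, Cxcl12 acts through Cxcr4 with Ackr3 as a scavenging receptor, and Cxcl14 is made constitutively by many epithelia. Cxcl16 and Cx3cl1 differ from the rest in being made as membrane proteins, which Adam10 and Adam17 can cut to release the soluble chemokine.

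Each deposited value is on the log2 scale and is relative to the median of its own row, so it compares arrays and carries no level. The spacing of the stored numbers gave a rough band for that median. It was log2 8 to 16 for 13 member probe sets, 4 to 8 for 6 and below 4 for none, and the method can place a probe set a band or more too high. Of simulated rows, 26.2% of those truly at 4 to 8 and 6.1% of those truly below 4 were called 8 to 16.

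Cxcl16 was the member with the largest difference and was higher in both Wnt3A arrays, while Cx3cl1, the other membrane chemokine, was lower in both Wnt3A arrays by 2 of its 4 probe sets. Cxcl14 was higher by 1 of its 2 probe sets. The neutrophil chemokines Cxcl1, Cxcl2 and Cxcl5 overlapped between the groups, as did Ccl2 and Ccl20, and Cxcl12 varied more between arrays of the same group than between groups. Limma called no probe set at an adjusted p under 0.05 among all 45037 (percent called 0, smallest adjusted p 0.511), and 19 of 19 member probe sets had an adjusted p of 0.706 or above. At an unadjusted p under 0.05, limma called 4 of the 19 member probe sets, 3 higher and 1 lower, against 2.98% of all probe sets called higher and 3.24% called lower. Both Wnt3A arrays lay above both Control arrays for 3 member probe sets and below both for 3, which is 15.8% each way, against 17.4% and 16.3% of all probe sets. Together 6 of 19 did not overlap between groups, against 33.7% of all. A difference of at least 1 log2 unit was seen in 2 of 19, both of Cxcl16, against 1.59% of all. The share of members separated by group was thus near that of the whole array, and their median difference was -0.08 log2 units against 0.01 over all probe sets. Without regard to sign, their median difference was 0.33 against 0.13, and their arrays also lay further apart within each group.

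**Figure D1:**
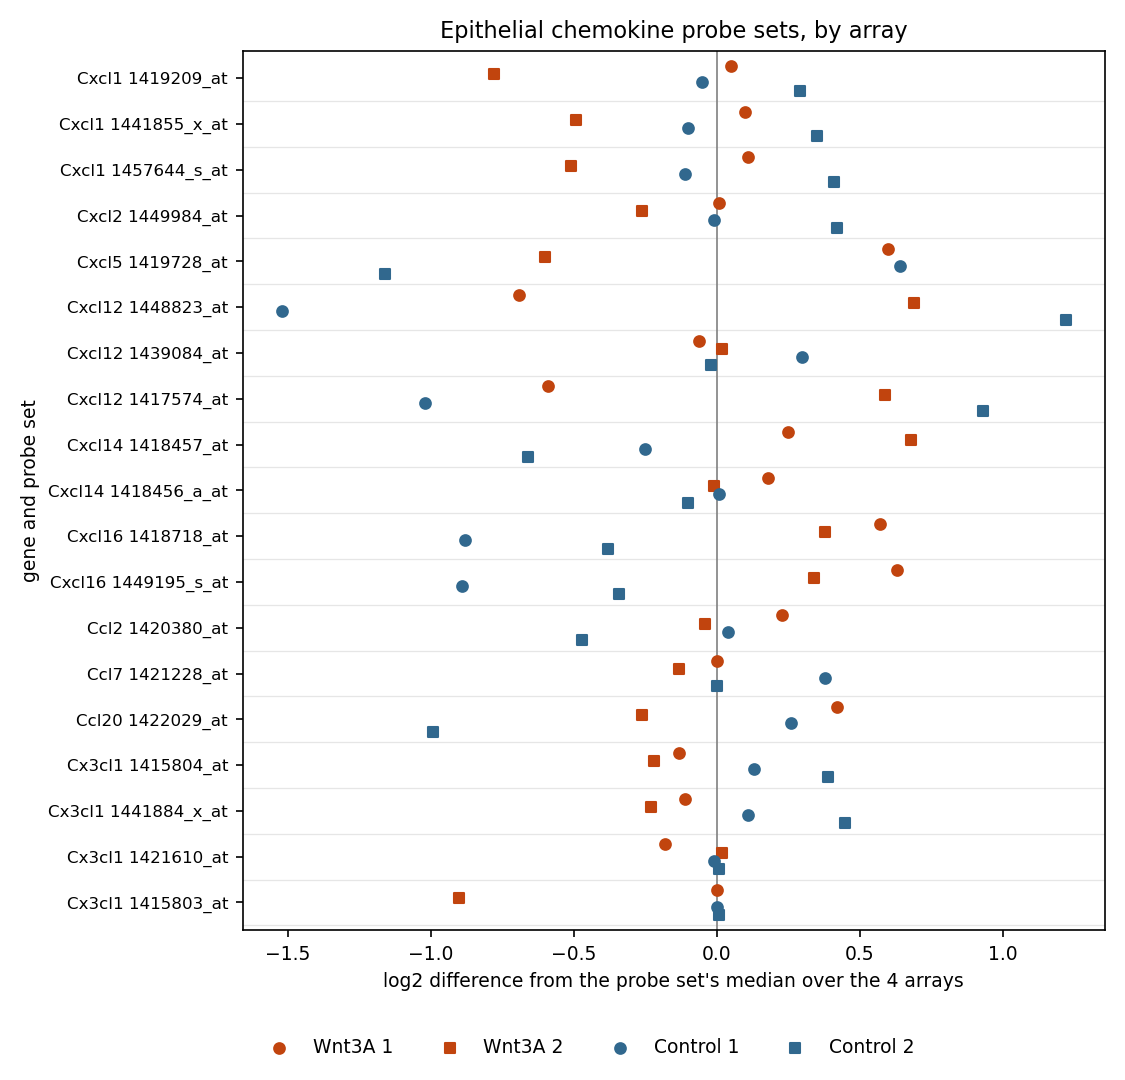
Each row is a probe set of a member gene, and the horizontal axis is the log2 value relative to the row median. Orange marks are Wnt3A arrays, blue marks Control arrays, circles replicate 1 and squares replicate 2, and the groups stand apart for both Cxcl16 probe sets, at 0.34 to 0.63 with Wnt3A and -0.89 to -0.34 in Control.

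Cxcl16 lies at chr11:70454389-70459984 of GRCm38.p6, the assembly of every coordinate given, and encodes a transmembrane chemokine that binds Cxcr6 and also takes up oxidised lipoprotein. Its probe set 1418718_at stood at 0.57 in Wnt3A 1 and 0.38 in Wnt3A 2, against -0.88 in Control 1 and -0.38 in Control 2. The second probe set, 1449195_s_at, gave 0.63 and 0.34 in the Wnt3A arrays, against -0.89 and -0.34 in the Control arrays. Both read the same order of arrays with the groups apart. The suffixes _s_at and _x_at mark probe sets with probes that may also match other transcripts. The difference was 1.10 ± 0.22 log2 units (SE, n = 2 arrays a group) for 1418718_at, a 2.15-fold higher signal with a 95% interval of 0.52 to 1.69 (limma adjusted p = 0.706). It was 1.10 ± 0.24 for 1449195_s_at (limma adjusted p = 0.719). An absolute difference at least this large was found in 1.25% of all probe sets. With each array left out in turn, both probe sets stayed higher, by 0.82 to 1.37 log2 units, with an unadjusted p under 0.05 each time.

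Cx3cl1, at chr8:94772180-94782427, encodes fractalkine, a membrane-bound adhesion molecule and chemoattractant for Cx3cr1-bearing leukocytes. Its probe set 1415804_at was at -0.13 and -0.22 in Wnt3A 1 and Wnt3A 2, against 0.13 and 0.39 in Control 1 and Control 2. Probe set 1441884_x_at read -0.11 and -0.23 in the Wnt3A arrays and 0.11 and 0.45 in the Control arrays. In both, the Wnt3A arrays lay below the Control arrays. Their differences were -0.43 ± 0.15 (limma adjusted p = 0.78) and -0.45 ± 0.17 (limma adjusted p = 0.804), the first a 1.35-fold lower signal. The other two Cx3cl1 probe sets overlapped between groups. Probe set 1415803_at was at 0.00 and -0.90 in the Wnt3A arrays against 0.00 and 0.01 in the Control arrays, so that its difference of -0.45 ± 0.33 came from Wnt3A 2 alone and was 0.00 without it. Probe set 1421610_at differed by -0.08 ± 0.13, with values between -0.18 and 0.02 over the 4 arrays. The unadjusted call of 1415804_at ended without Wnt3A 1 (-0.48), without Wnt3A 2 (-0.39) and without Control 2 (-0.31).

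The sheddases of these 2 membrane chemokines showed no separation by group. Adam10 differed by -0.20 to 0.08 log2 units over 4 probe sets and Adam17 by -0.26 to -0.02 over 3, all with overlapping groups. Their receptors were read as well. Cxcr6, the receptor of Cxcl16, was at 0.42 and 0.12 in the Wnt3A arrays and -0.13 and -0.12 in the Control arrays by probe set 1425832_a_at, a difference of 0.39 ± 0.15 (limma adjusted p = 0.814). Its second probe set, 1422812_at, differed by -0.05 ± 0.14 with overlapping groups, so the probe sets of Cxcr6 disagree. Cx3cr1 differed by -0.04 and 0.13 in its 2 probe sets, no larger than their SE of 0.18 and 0.13. In the second, 1450020_at, both Wnt3A arrays lay above both Control arrays, at 0.21 and 0.01 against -0.01 and -0.04.

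**Figure D2:**
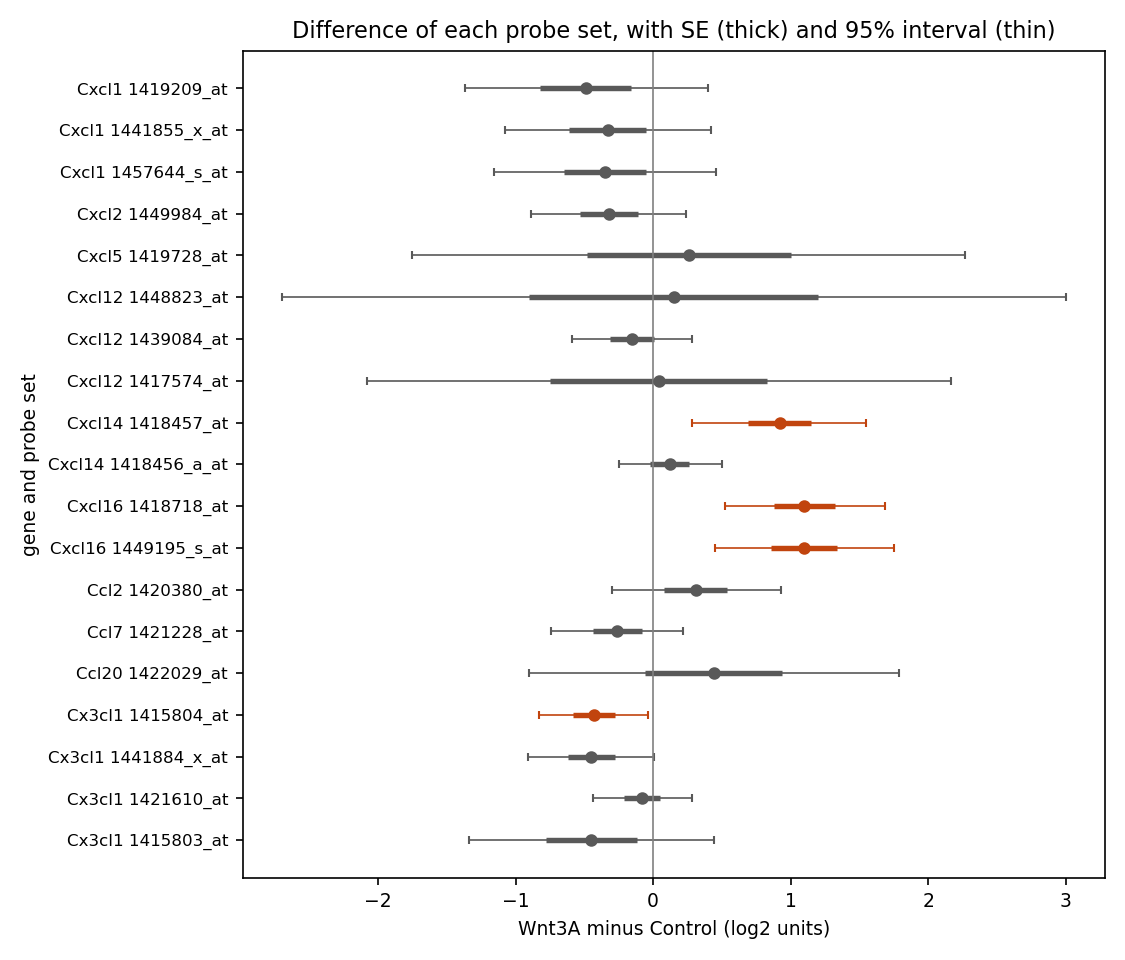
Points are the Wnt3A minus Control difference of each member probe set in log2 units, thick bars the limma SE and thin bars the 95% interval, with 2 arrays a group. The 4 probe sets in orange had an unadjusted p under 0.05, and the intervals of Cxcl5 and of 2 Cxcl12 probe sets run past 1 log2 unit on both sides of 0.

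Cxcl14, at chr13:56288643-56296811, encodes a CXC chemokine of skin and mucosal epithelia whose receptor use is less settled than that of the other members. Probe set 1418457_at was at 0.25 and 0.68 in Wnt3A 1 and Wnt3A 2, against -0.25 and -0.66 in Control 1 and Control 2. Both Wnt3A arrays lay above both Control arrays. The difference was 0.92 ± 0.23 log2 units, 1.89-fold, with a 95% interval of 0.28 to 1.55 (limma adjusted p = 0.728). Probe set 1418456_a_at, in the lower band, read 0.18 and -0.01 in the Wnt3A arrays and 0.01 and -0.10 in the Control arrays, and its 0.12 ± 0.14 did not stand out from the spread. Averaged over both probe sets, Cxcl14 differed by 0.52. The difference of 1418457_at was 0.70 without Wnt3A 2 and 0.71 without Control 2, and its unadjusted call ended in each case.

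Cxcl1 and Cxcl2, at chr5:90891245-90893121 and chr5:90903899-90905938, are neighbouring genes for closely related neutrophil attractants that NF-kappaB is known to induce. Cxcl1 was at 0.05 and -0.78 in Wnt3A 1 and Wnt3A 2 by probe set 1419209_at, against -0.05 and 0.29 in Control 1 and Control 2. Cxcl2 was at 0.01 and -0.26 in the Wnt3A arrays, against -0.01 and 0.42 in the Control arrays. In both genes Control 2 was the highest array and Wnt3A 2 the lowest, with Wnt3A 1 and Control 1 close together, so the groups overlapped. Cxcl1 differed by -0.49 ± 0.33 in 1419209_at, -0.33 ± 0.28 in 1441855_x_at and -0.35 ± 0.30 in 1457644_s_at, and Cxcl2 by -0.32 ± 0.21. The 95% intervals, -1.37 to 0.40 for 1419209_at and -0.89 to 0.24 for Cxcl2, leave room for either direction. Leaving out Wnt3A 2 brought the Cxcl1 difference in 1419209_at to -0.07, and leaving out Wnt3A 1 brought it to -0.90. The 3 Cxcl1 probe sets gave the same order of arrays.

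RefSeq promoter windows of GRCm38.p6, 250 bases before to 50 after a start site, were given for 6 members: Cxcl1, Cxcl2, Cxcl12, Cxcl14, Ccl20 and Cx3cl1. Cxcl5, Cxcl16, Ccl2 and Ccl7 had no window, so their promoters were not searched. Sequences are shown for the 3 members with the stricter kappaB letters, whose values did not separate by group, and for Cxcl12, which holds the TCF/LEF letters. Each is the 200 bases before the start site, on the strand of the gene. Capitals mark matches on either strand to the letters GGG, then any 2 bases, then TTTCC, a form of the kappaB site, in Cxcl1 (chr5:90891045-90891244, + strand), Cxcl2 (chr5:90903699-90903898, + strand) and Ccl20 (chr1:83116566-83116765, + strand). In Cxcl12 (chr6:117168335-117168534, + strand) they mark CTTTGAT, the core of the site bound by TCF/LEF, the nuclear effectors of canonical Wnt signalling.
Cxcl1: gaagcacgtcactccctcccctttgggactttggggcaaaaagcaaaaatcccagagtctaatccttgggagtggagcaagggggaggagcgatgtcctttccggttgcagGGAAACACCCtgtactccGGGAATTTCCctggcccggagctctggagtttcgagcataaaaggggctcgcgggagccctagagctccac
Cxcl2: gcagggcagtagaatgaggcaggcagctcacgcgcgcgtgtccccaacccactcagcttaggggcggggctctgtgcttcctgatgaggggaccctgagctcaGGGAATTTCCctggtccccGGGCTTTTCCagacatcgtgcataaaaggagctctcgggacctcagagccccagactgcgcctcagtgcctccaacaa
Ccl20: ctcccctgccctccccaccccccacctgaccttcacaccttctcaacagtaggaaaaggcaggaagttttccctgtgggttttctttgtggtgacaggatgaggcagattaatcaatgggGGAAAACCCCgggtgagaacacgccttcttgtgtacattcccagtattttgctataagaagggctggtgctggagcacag
Cxcl12: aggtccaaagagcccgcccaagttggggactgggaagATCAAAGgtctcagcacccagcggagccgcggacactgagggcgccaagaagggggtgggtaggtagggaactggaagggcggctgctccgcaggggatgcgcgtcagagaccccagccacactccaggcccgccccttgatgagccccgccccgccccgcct

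The first match in Cxcl1 ran from -89 to -80 and the second from -71 to -62, counted back from the start site, and those in Cxcl2 from -97 to -88 and from -78 to -69. The longest run of letters that Cxcl1 and Cxcl2 share in the 250 bases before their start sites was 14 bases, GGGAATTTCCCTGG, which holds a kappaB match in each. This form was found in 3 of the 6 member windows and in 1.63% of 32851 windows in the table. A looser form, GGG, any 3 bases and TTCC, was found in the same 3 windows, overlapping those matches, and in 5.56% of all windows. The loosest form, GGG, any 5 bases and CC, was found in these and in Cxcl12, and in 50.8% of all. CTTTGAT was found in Cxcl12 alone among the 6, read as ATCAAAG on the gene's strand from -163 to -157, and in 3.73% of all windows. TGANTCA, the AP-1 site, was in none of the 6 and in 7.81% of all. The windows of Cxcl14 and Cx3cl1, the 2 members with a window and an unadjusted call, held none of these letters. The Cxcl14 window, however, lay inside the gene, whose outer end on the - strand is chr13:56296811. Its 200 bases before the start site used were chr13:56296552-56296751. The bases before the outer end of Cxcl14 were thus not searched. A match is a description of the sequence only.

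Cxcl5, at chr5:90759298-90761625, encodes a neutrophil attractant of epithelial cells. It was at 0.60 and -0.60 in Wnt3A 1 and Wnt3A 2, against 0.64 and -1.16 in Control 1 and Control 2. The arrays numbered 1 were high and those numbered 2 low in both groups, and the difference of 0.26 ± 0.74 is smaller than the gap within either group. Its 95% interval of -1.75 to 2.27 holds changes of either sign, and the difference was -0.34 without Wnt3A 1 and -0.64 without Control 2. Cxcl3, a neighbour in function that is not a member, was likewise lowest in Control 2, with 1.19 and -0.15 in the Wnt3A arrays against 0.15 and -1.34 in the Control arrays, and differed by 1.12 ± 0.69 (limma adjusted p = 0.918), by 0.45 without Wnt3A 1 and by 0.37 without Control 2. Cxcr2, the receptor of all 4 of these neutrophil attractants, was at -0.13 and -0.10 in the Wnt3A arrays and 0.13 and 0.10 in the Control arrays. It was thus separated lower, with a difference of -0.23 ± 0.12 (limma adjusted p = 0.875).

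Ccl20, at chr1:83116766-83119167, also had both arrays numbered 2 below both numbered 1. It was at 0.42 and -0.26 in Wnt3A 1 and Wnt3A 2, against 0.26 and -0.99 in Control 1 and Control 2. Control 2 stood lowest and the groups overlapped. The difference of 0.44 ± 0.50 (95% interval -0.90 to 1.79) was -0.18 without Control 2. Ccr6, its receptor, differed by 0.02 ± 0.26.

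Ccl2 and Ccl7, monocyte attractants that lie side by side at chr11:82035577-82037452 and chr11:82045712-82047525, had differences of opposite sign, each not far from its SE. Ccl2 was at 0.23 and -0.04 in Wnt3A 1 and Wnt3A 2, against 0.04 and -0.47 in Control 1 and Control 2, a difference of 0.31 ± 0.23 with overlapping groups. Ccl7 was at 0.00 and -0.13 in the Wnt3A arrays, against 0.38 and 0.00 in the Control arrays. It counts among the 3 probe sets separated lower, but Wnt3A 1 and Control 2 were equal to the second decimal, and the difference was -0.26 ± 0.18 (limma adjusted p = 0.936). The 95% intervals were -0.30 to 0.93 for Ccl2 and -0.74 to 0.22 for Ccl7. The shared receptor Ccr2 differed by -0.16 to 0.02 over 4 probe sets, 1 of them in the lowest band, and was separated lower in 1421187_at (-0.16 ± 0.13).

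Cxcl12, at chr6:117168535-117181368, is best known as the chemokine that holds stem and progenitor cells in their niches. Its probe set 1448823_at was at -0.69 and 0.69 in Wnt3A 1 and Wnt3A 2, against -1.52 and 1.22 in Control 1 and Control 2, and 1417574_at was at -0.59 and 0.59 in the Wnt3A arrays against -1.02 and 0.93 in the Control arrays. Both arrays numbered 2 lay above both numbered 1, with the Wnt3A arrays inside the range of the Control arrays. The differences were 0.15 ± 1.05 and 0.04 ± 0.79 log2 units, with 95% intervals of -2.70 to 3.00 and -2.08 to 2.17, so a change of several fold either way was not detectable here. The third probe set, 1439084_at, differed by -0.15 ± 0.16 and did not show the order of the others. Without Control 1 the 1448823_at difference was -1.22, and without Control 2 it was 1.52.

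Over the members, both arrays numbered 2 lay above both numbered 1 in 3 probe sets and below both in 4, against 17% and 28.3% of all probe sets, so the count itself is near the background. The median gap within a group was 0.29 log2 units between the Wnt3A arrays and 0.43 between the Control arrays, against 0.19 and 0.18 over all probe sets. At least 1 log2 unit separated the 2 arrays of a group in 4 of 19 member probe sets, those of Cxcl5, Ccl20 and 2 of Cxcl12, against 5.58% of all probe sets. The Wnt3A difference exceeded the gap within either group in 5 of 19, namely both of Cxcl16, 1418457_at of Cxcl14, and 1415804_at and 1441884_x_at of Cx3cl1, against 22.6% of all probe sets.

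**Figure D3:**
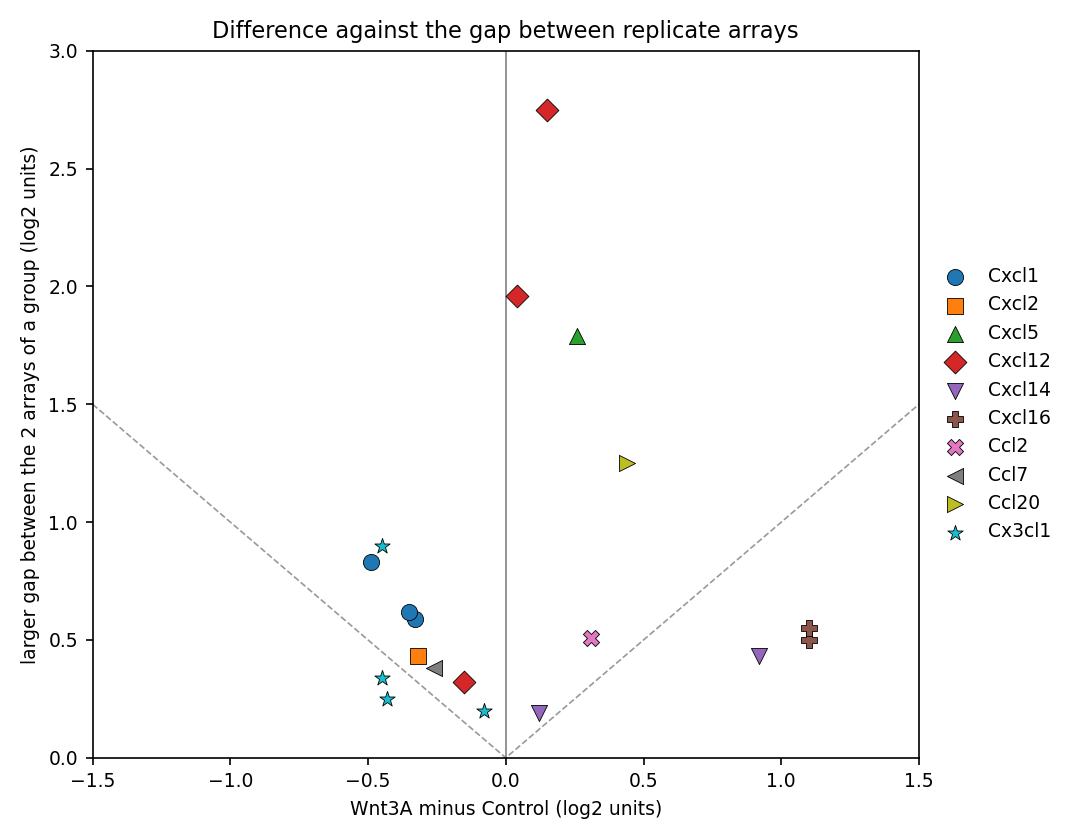
The horizontal axis is the Wnt3A minus Control difference of each member probe set and the vertical axis the larger gap between the 2 arrays of a group, both in log2 units. Probe sets under the dashed lines, 5 of 19, differed between groups by more than the arrays of either group differed from each other, and 2 Cxcl12 probe sets at the top had gaps of 1.96 and 2.75.

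Of the receptors of Cxcl12, Cxcr4 was separated by group and Ackr3 was not. Cxcr4, its signalling receptor, was at -0.50 and -1.73 in Wnt3A 1 and Wnt3A 2, against 1.54 and 0.50 in Control 1 and Control 2. Both Wnt3A arrays were lower, with a difference of -2.14 ± 0.56 log2 units, a 4.39-fold lower signal (limma adjusted p = 0.728), between -2.75 and -1.52 with each array left out. It was the only one of 22 receptor probe sets with an unadjusted p under 0.05, against 6.22% of all probe sets. Ackr3, which removes Cxcl12 from the surroundings of a cell, was at -0.04 and 0.17 in the Wnt3A arrays and -2.04 and 0.04 in the Control arrays. As in Cxcl12, both arrays numbered 2 lay above both numbered 1, and its difference of 1.06 ± 0.72 came from Control 1 and was 0.02 without it. The 12 receptor genes measured had 3 of 22 probe sets separated higher and 3 lower, 13.6% each way against 17.4% and 16.3% of all, with a median difference of 0.01, and Ackr4 was among those separated higher in 1 probe set (0.28 ± 0.21), with its other probe sets at 0.10 and -0.21.

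Some contractile and collagen probe sets, picked out after their values were seen, shared with Cxcl12 that both arrays numbered 2 lay above both numbered 1, and others did not. Over whole lists, this order was found in 9 of 30 basal and 3 of 26 fibroblast probe sets, and the opposite order in 2 and 8, against 17% and 28.3% of all probe sets. Cnn1, encoding the smooth muscle protein calponin, was at -0.48 and 0.65 in the Wnt3A arrays and -2.75 and 0.48 in the Control arrays. Myh11, smooth muscle myosin, was at -0.50 and 0.92 in the Wnt3A arrays and -3.30 and 0.50 in the Control arrays by probe set 1448962_at. Col1a2 was at -0.44 and 0.44 in the Wnt3A arrays and -1.13 and 1.00 in the Control arrays by probe set 1423110_at, the same order as Cxcl12. Col3a1 went the opposite way in 1427883_a_at, with 0.67 and -0.61 in the Wnt3A arrays and 0.44 and -0.44 in the Control arrays, as did Col6a3, with 1.23 and -0.48 in the Wnt3A arrays and 0.39 and -0.39 in the Control arrays. Acta2, smooth muscle actin, had both arrays numbered 2 above both numbered 1 in 1 of its 3 probe sets. The medians over the 26 fibroblast probe sets were 0.08 and -0.04 in Wnt3A 1 and Wnt3A 2, and -0.01 and -0.10 in Control 1 and Control 2, and 3 of them were in the lowest band. The part of other cell types in the Cxcl12 values was not tested.

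**Figure D4:**
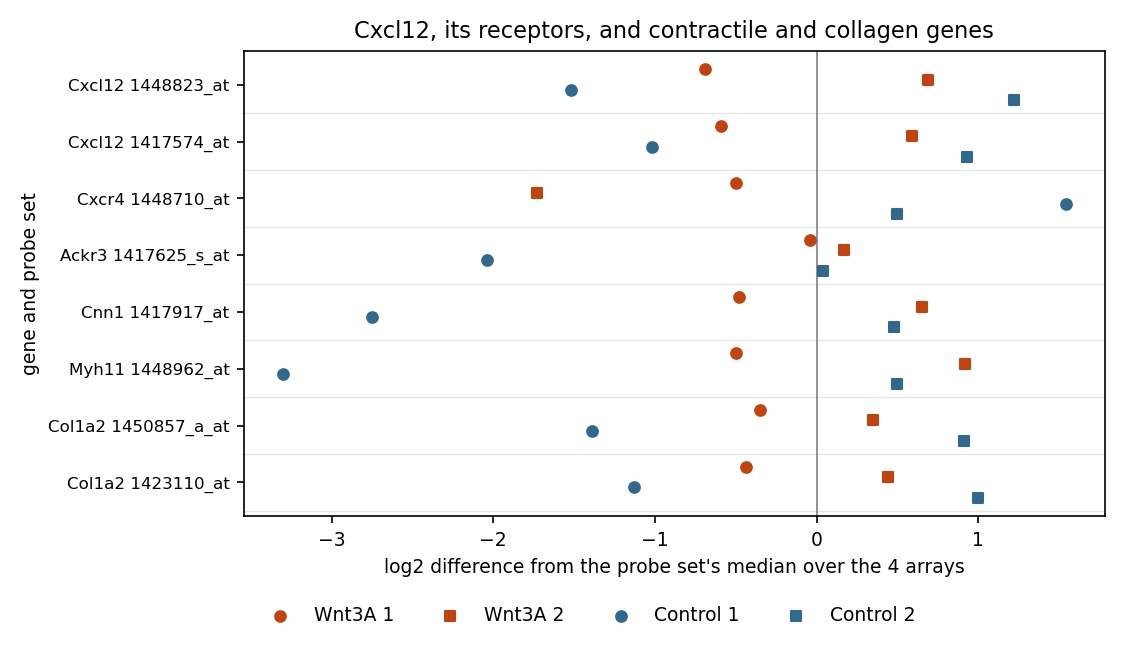
Rows are Cxcl12, its receptors Cxcr4 and Ackr3, and contractile and collagen genes, with the log2 value relative to the row median on the horizontal axis and marks as in the plot of members by array. Cxcl12 and Col1a2 run in the order Control 1, Wnt3A 1, Wnt3A 2, Control 2, whereas Cxcr4 is lower in both Wnt3A arrays.

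Among chemokines outside the members, those induced by interferon and the remaining ligands were also read. Cxcl10, an attractant of Cxcr3-bearing T cells, was at -0.84 and -0.70 in Wnt3A 1 and Wnt3A 2 and at 0.70 and 1.71 in Control 1 and Control 2, a difference of -1.97 ± 0.37 (limma adjusted p = 0.673). The rest of that list did not follow it: Cxcl9 differed by -0.18 ± 0.18 and -0.07 ± 0.12, Cxcl11 by 0.01 ± 0.28 and, in the lowest band, 0.12 ± 0.12, and Ccl5 by 0.04 ± 0.14. Of 28 probe sets of other chemokine ligands, 4 (14.3%) were separated higher and 2 (7.14%) lower, against 17.4% and 16.3% of all, with a median difference of 0.00. Ccl27a, a skin-homing chemokine of keratinocytes, was lower at -0.54 and -0.32 in the Wnt3A arrays against 0.32 and 0.69 in the Control arrays (-0.93 ± 0.19, limma adjusted p = 0.713), in a probe set of the _x_at kind. Ccl25 differed by 0.39 ± 0.14 and, in the lowest band, by 0.19 ± 0.16, and Cxcl17, a mucosal chemokine, by -0.67 ± 0.45, of which -0.06 remained without Control 2.

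Genes of NF-kappaB signalling and of the cytokines that induce chemokines were read in 40 probe sets. Of these, 12 (30%) were separated higher and 1 (2.5%) lower, against 17.4% and 16.3% of all probe sets, and their median difference was 0.21 against 0.01. This list, like the others, was chosen with earlier results of these data known. Probe sets of a gene are not replicates, and Nfkbia and Nfkbie each counted more than once among the 12. An unadjusted p under 0.05 was reached by 4 of the 40, against 6.22% of all probe sets, and not by the others. Il1a, encoding interleukin-1 alpha, differed by 1.99 ± 0.27 (limma adjusted p = 0.611). Il17rc, a subunit of the interleukin-17 receptor, differed by 0.78 ± 0.17 in 1419671_a_at and by -0.02 in its other probe set. Tlr2, a receptor for bacterial lipoproteins, differed by 0.85 ± 0.26. Nfkbia, the inhibitor that NF-kappaB switches on, differed by 0.54 ± 0.17 in 1448306_at and by 0.22 to 0.41 in 4 further probe sets. Of these 4, 1420089_at, 1438157_s_at and 1449731_s_at had overlapping groups. Without Control 1 the 4 further differences were -0.05 to 0.14, and that of 1448306_at was 0.42.

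Among genes whose products process or hold chemokines, 8 of 25 probe sets (32%) were separated higher and 2 (8%) lower, against 17.4% and 16.3% of all, with a median difference of 0.03. All 8 were probe sets of Sdc1, Mmp9 and Dpp4, each counted more than once. Sdc1, the heparan sulfate proteoglycan syndecan-1, was 0.86 ± 0.20 and 0.59 ± 0.19 higher in its 2 probe sets with an unadjusted p under 0.05, and 0.43 and 0.25 higher in the other two. Mmp9, a gelatinase, differed by 1.70 ± 0.79 in 1448291_at and 1.60 ± 0.72 in 1416298_at, of which 0.66 remained in each without Wnt3A 1. Dpp4, the peptidase that inactivates Cxcl12, differed by 0.74 ± 0.30 in 1416697_at and by 0.04 to 0.44 in 3 further probe sets, 1 of them in the lowest band. Sdc4 differed by -0.59 ± 0.35 in 1448793_a_at, of which -0.11 remained without Control 1, and by -0.09 ± 0.14 in its other probe set.

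Every probe set of Krt14, Krt5, Krt8, Krt18 and Epcam lay in the upper level band, but so did 45.5% of all probe sets, and the bands do not show which cell types were present. That band held 23 of 30 basal, 15 of 20 luminal, 8 of 28 leukocyte, 10 of 26 fibroblast and 6 of 14 endothelial probe sets. Basal markers were separated higher in 11 of 30 probe sets (36.7%) and lower in 2 (6.67%), against 17.4% and 16.3% of all probe sets. All 11 came from Itgb1, Krt14 and Krt17, each with more than 1 such probe set, and from Itgb4 and Trp63. Probe sets of a gene are not replicates, so the share is not a count of genes. Krt17 differed by 0.73 ± 0.26 and 0.55 ± 0.17. Itgb1, the CD29 of the sort, differed by 0.86 ± 0.31 in 1452545_a_at, which was 0.48 without Control 1. Its other probe sets differed by 0.05 to 0.79, with overlapping groups in 1438119_at. Myh11 (1448962_at) and Cnn1 differed by 1.61 ± 1.39 and 1.22 ± 1.17, but their groups overlapped. Without Control 1 these differences were -0.29 and -0.39, and Myh11 differed by -0.02 in its other probe set. Luminal markers were separated lower in 6 of 20 (30%) and higher in 1 (5%). The largest of these differences were -2.34 ± 0.50 in Foxa1, -1.71 ± 0.82 in Krt19, -1.41 ± 0.53 in Kit (1452514_a_at) and -1.25 ± 0.40 in Pgr (1439527_at). The rest of the 6 were further probe sets of Pgr. Kit differed by -0.08 in its other probe set, Krt8 by 0.17 to 0.30, Krt18 by 0.17, Gata3 by -0.16 and Epcam by -0.20 and -0.10. The groups overlapped in each of these.

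Of 28 leukocyte probe sets, 4 (14.3%) were separated higher and 4 (14.3%) lower, against 17.4% and 16.3% of all. None of the 28 had an unadjusted p under 0.05, against 6.22% of all. These 28 had array medians of 0.09 and -0.03 with Wnt3A and 0.04 and -0.05 in Control. Of them, 6 were in the lowest band, the 2 of Ptprc, the pan-leukocyte CD45 of the sort, among them. Laptm5 differed by 0.57 ± 0.33 in 1447742_at, of which 0.12 remained without Wnt3A 1, and by -0.17 to 0.11 in its other probe sets. Coro1a differed by 0.33 ± 0.27 in 1416246_a_at and by 0.15 and 0.01 in its others, Cd79b by 0.33 ± 0.14 and Cd68 by 0.28 ± 0.17. Of 26 fibroblast probe sets, 6 (23.1%) were separated higher and 2 (7.69%) lower, against 17.4% and 16.3% of all. The 6 differed by 0.10 to 0.84. The 2 lower were both of Pdgfra, at -1.76 ± 0.48 and -0.54 ± 0.16, while its other probe set differed by 0.02 ± 0.26. Col6a1 differed by 0.84 ± 0.44, of which 0.22 remained without Wnt3A 1, Postn by -0.65 ± 0.58 and Col6a3 by 0.37 ± 0.65. Of 14 endothelial probe sets, 2 (14.3%) were separated higher and 1 (7.14%) lower, against 17.4% and 16.3% of all. Their array medians were 0.07 and -0.07 with Wnt3A and 0.12 and -0.10 in Control. Tek differed by 0.39 ± 0.14, Emcn, in the lowest band, by -0.32 ± 0.28, Vwf by -0.21 ± 0.16 and Cdh5 by -0.19 ± 0.26 in 1433956_at. The Wnt target Axin2 differed by 1.76 ± 0.32 in 1436845_at and by -0.12 ± 0.13 in its other probe set, in the lowest band, Procr by 2.75 ± 0.71, and Lef1 by 0.25 ± 0.19 and -0.13 ± 0.13. The part of these marker differences in those of Cxcl16, Cxcl14 and Cx3cl1 was not tested.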

How the data were processed

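RNA from 4 colony samples was hybridised to Affymetrix Mouse Genome 430 2.0 arrays. The deposited log2 values are RMA values, per the submitters' processing notes. Over the 4 arrays each of the 45101 rows had a median of 0, so the deposited log2 values had been centred by probe set, a step not given in the sources used here. Levels could not be used, and a level band was read instead from the stored precision and can be a band or more too high. After 64 array control rows were left out, 45037 probe sets were tested with no filter, of which 34945 had a single symbol in the platform annotation, and 34741 of these matched a RefSeq gene by Entrez identifier.

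Wnt3A was compared with Control in limma 3.58.1 (R 4.3.3; lmFit, eBayes, two-sided, Benjamini-Hochberg over all probe sets, threshold 0.05) with no covariate, 2 residual and 2.3 prior degrees of freedom. SE, intervals and p are from this moderated fit. An exact two-sided permutation test of 2 against 2 arrays reaches 0.33 at the lowest. The fit and the bands were tested on simulated data. Members and lists were chosen with earlier results of these data known. Named beside the members were, in each list, probe sets separated by group with an unadjusted p under 0.05, filled up with the largest absolute differences to 4 genes a list, and Axin2, Lef1 and Procr. Adam10, Adam17, Cx3cr1, Cxcr2, Ccr2, Ccr6, Epcam, Ptprc and the keratins were named in addition for their roles, and Col1a2, Col3a1 and Acta2 after their values were seen. Among the listed genes, Cxcr1, Ccl19, Ccl21a, Ccl26, Nfkb1, Il17c and Prlr had no probe set with a single symbol of that name and were not analysed here. Alternatives were other normalizations, level filters, gene means, a robust variance prior, a block for the replicate number and each array left out. Promoters came from RefSeq. Figures used matplotlib 3.10.9.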

Additional observations from a re-analysis of the deposited data

How the results depend on the processing

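No probe set passed the adjusted threshold under any alternative. The 4 member probe sets with an unadjusted p under 0.05 stayed 4 under quantile normalization, array centring, robust eBayes and both level filters. They were 2 to 5 with each array left out, and as gene means they were 2 of 10 genes (Cxcl16 and Cxcl14) by either rule. Probe sets separated higher were 4 to 7 and those separated lower 5 to 10 with each array left out, where a lone array stands for its group, is taken to be as variable as the remaining pair, and separates more easily. Cx3cl1 as a gene mean differed by -0.35 or -0.32, past neither threshold. Differences that changed sign were those of Cxcl5 (-0.64 to 1.16), Ccl20 (-0.18 to 1.07), Cx3cl1 1421610_at (-0.18 to 0.02), and Cxcl12, at -1.22 to 1.52 for 1448823_at, -0.93 to 1.02 for 1417574_at and -0.31 to 0.01 for 1439084_at, each over the fits with an array left out. By quantile normalization 1417574_at was at -0.03, and gene means of Cxcl12 were 0.01 and 0.15 against -0.15 for 1439084_at. The cause was not tested. With the replicate number as a block, 1 residual degree of freedom was left, the same 4 member probe sets had an unadjusted p under 0.05, and over all probe sets 4882 did against 2801 without the block. Cxcl3, outside the members, was among those past this threshold with the block alone, with differences of 1.04 between the arrays numbered 1 and 1.20 between those numbered 2. Deviations of same-numbered arrays from their group means correlated at 0.53 over all probe sets, but with 2 pairs and no label tying them the numbers do not establish pairing. The number of arrays limits the precision, with a median SE of 0.16 log2 units.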
